A study of Homo sapiens with 21 samples.

Results

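RNA and tRNA modification enzymes are described here across 7 treatment groups of Hs578T cells, an established mesenchymal line of triple-negative breast cancer. Members are genes of the deposited count table whose NCBI symbol, looked up from the Entrez ID, begins with METTL, TRMT, ALKBH, NSUN, PUS, RPUSD, TRMO, TRIT, TYW, ELP, CTU, DUS, QTRT, ADAT, ADAR, THUMPD, FTSJ or TRUB and then holds nothing but digits around at most 1 letter, without the DUSP phosphatases. The rule found 100 members among 28395 genes, of which 27745 had a symbol. The study asked how a low dose of THZ531, a covalent CDK12 and CDK13 inhibitor, acts together with tyrosine kinase inhibitors. RNA was sequenced as unstranded polyA libraries after 8 h. The groups were DMSO, THZ531 at 0.1 μM, lapatinib (an EGFR and HER2 inhibitor) at 3.16 μM, nilotinib (a BCR-ABL inhibitor) at 1 μM, THZ531 0.1 μM with lapatinib 3.16 μM (the lapatinib combination), THZ531 0.1 μM with nilotinib 1 μM (the nilotinib combination), and THZ531 at 1 μM. Each group held 3 libraries, 21 in all, and every group was the same cell line. Both combinations and 1 μM THZ531 are called the strong treatments, and their values in threes stand in the order lapatinib combination, nilotinib combination, 1 μM THZ531. Single-agent low-dose libraries are those of 0.1 μM THZ531, lapatinib alone and nilotinib alone, and only THZ531 was also given at a higher dose. Total counts ran from 106023299 to 112229052 with DMSO, from 105036702 to 106791643 with 0.1 μM THZ531, from 97612207 to 102092309 with lapatinib, from 106148878 to 108180338 with nilotinib, from 103120049 to 105119748 in the lapatinib combination, from 101967991 to 104639800 in the nilotinib combination and from 102203282 to 104176583 with 1 μM THZ531. The paper states that the reads were paired-end. Whether pairs or single ends were counted is not given in the sources used here. Of counts from 1 to 20, 61.6 to 66.4% per library were even, so totals may exceed the fragments sequenced. Levels are given as CPM after TMM scaling. A figure legend of the study gives 3 independent experiments, and the p-values measure the spread between these libraries. Of the 100 members, 96 passed the filter on low counts, and ADARB2, METTL21C, METTL24 and NSUN7 did not, with at most 0.0255 CPM in any DMSO library.

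Cells modify RNA after it is transcribed. Methyltransferases of the METTL, TRMT and NSUN families add methyl groups to messenger, ribosomal and transfer RNA, AlkB dioxygenases remove some of them, pseudouridine synthases isomerize uridine, and deaminases convert adenosine to inosine. Transfer RNA carries the densest set of modifications, and those at the wobble position of the anticodon tune decoding, while CDK12 and CDK13 phosphorylate RNA polymerase II and promote elongation and full-length processing of long transcripts.

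The cell line was checked against its markers in DMSO (mean ± SD, n = 3, CPM). The mesenchymal markers were present, with VIM 6845 ± 281, CD44 1412 ± 35.1, AXL 1346 ± 26.8, FN1 1374 ± 554 and SPARC 2827 ± 133. The receptor and epithelial genes were low, with ESR1 0.364 ± 0.0297, CDH1 0.205 ± 0.0391 and EPCAM 0.0364 ± 0.0177, and PGR had no count with DMSO. Genes of other cells were also low, with PTPRC 1.05 ± 0.184, PECAM1 0.378 ± 0.118 and KRT14 4.16 ± 0.157. PTPRC stood at 2.33 ± 0.106 CPM and KRT14 at 6.05 ± 0.196 with 1 μM THZ531, and their part in the results was not tested.

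The strong treatments lowered most of the modification enzymes and raised a minority. A member counts as lower or higher at an adjusted p under 0.05 by the quasi-likelihood test of edgeR, adjusted over all genes tested (Benjamini-Hochberg). The lapatinib combination lowered 73 of 96 members and raised 13, against 37.8% and 34.3% of the 16036 genes tested. Beyond a log2 FC of 1 in size, 43 members were lower and 2 higher, against 21.3% and 7.9% of all genes, and the median log2 FC was -0.86 over members and -0.01 over all genes. The nilotinib combination lowered 70 of 96 members and raised 14, against 37.3% and 33.7% of the 16036 genes tested. Beyond a log2 FC of 1 in size, 38 members were lower and 2 higher, against 20.8% and 6.54% of all genes, and the median log2 FC was -0.77 over members and -0.01 over all genes. THZ531 at 1 μM lowered 71 of 96 members and raised 11, against 36.8% and 33.1% of the 16036 genes tested. Beyond a log2 FC of 1 in size, 36 members were lower and 0 higher, against 18.9% and 5.77% of all genes, and the median log2 FC was -0.76 over members and -0.01 over all genes. Beyond a log2 FC of 1, ADAT3 and METTL27 were the members higher in the lapatinib combination, and ADAT3 and METTL27 in the nilotinib combination. These 3 comparisons share the DMSO libraries, so their counts are not independent of each other. Less RNA of a gene per cell and fewer cells that express it cannot be told apart in bulk samples.

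The share called in each direction depended on the scaling, since TMM holds the bulk of genes near 0. The 13 mRNAs encoded by the mitochondrial genome took 1.25% ± 0.0895 of counts with DMSO (SD, n = 3), 1.6% ± 0.139 in the lapatinib combination, 1.56% ± 0.115 in the nilotinib combination and 1.53% ± 0.219 with 1 μM THZ531. Scaling to these mRNAs moved the median log2 FC of all genes to -0.69, -0.63 and -0.55 in the same order, and library size alone moved it to -0.34, -0.32 and -0.27. A scaling shifts all genes alike, so by construction the distance of the members' median from the all-gene median hardly depends on it. With TMM this distance was -0.85, -0.76 and -0.75. With mitochondrial scaling 85, 83 and 83 members were lower and 2, 2 and 0 higher, against 58.4% and 5.3%, 55.9% and 4.83%, and 52.5% and 4.35% of all genes lower and higher under that scaling, so a rise reported with TMM is a rise relative to the bulk of genes. Under mitochondrial scaling ADAT3 and METTL27 no longer counted as higher beyond a log2 FC of 1 in either combination. More members counted as lower beyond -1 in each strong treatment than with TMM. Where the log2 FC of a gene is said below to turn in sign, whether the turned value passed the test is not given. Some of these values lie near 0. Which scaling fits the RNA content of the cells was not tested.

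**Figure D1:**
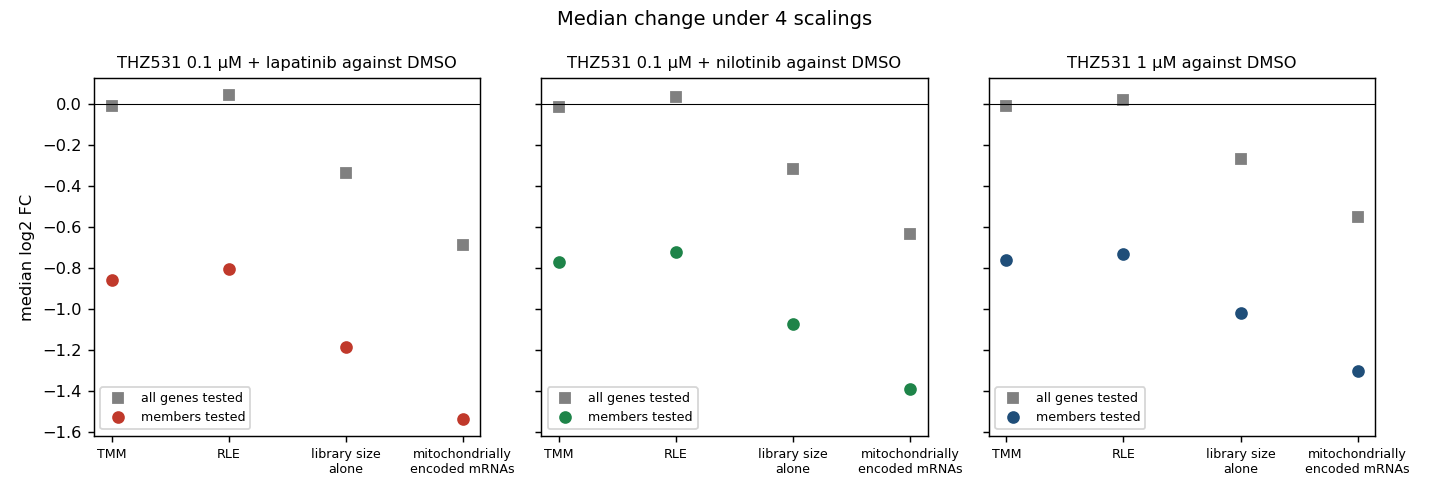
Median log2 FC against DMSO of the 96 tested members (circles) and of all genes tested (squares) under 4 scalings, 1 panel per strong treatment. In the lapatinib combination the all-gene median went from -0.01 with TMM to -0.69 with mitochondrial scaling and the members' median from -0.86 to -1.54.

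**Figure D2:**
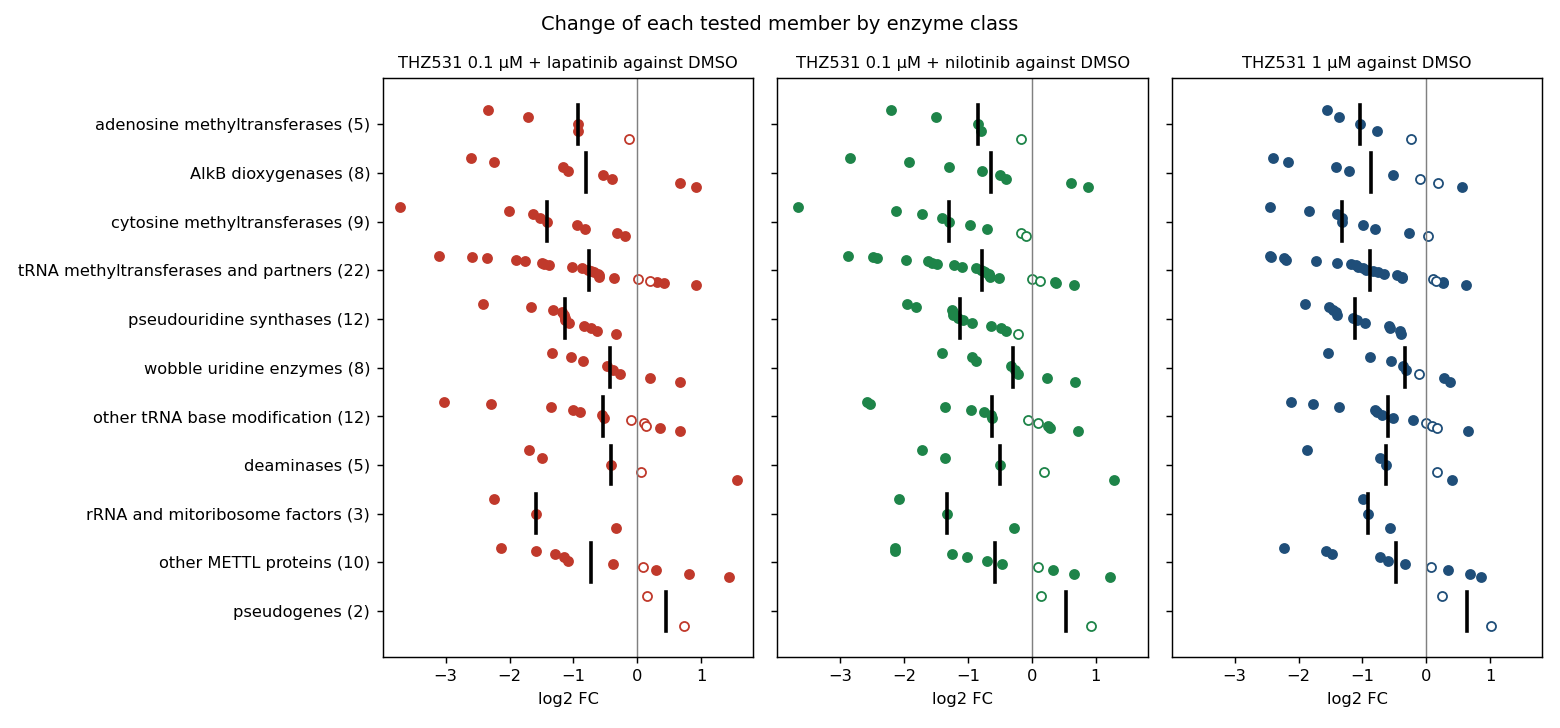
Log2 FC against DMSO of each tested member by enzyme class (members tested in brackets), 1 panel per strong treatment, with TMM scaling; filled circles passed an adjusted p under 0.05 and bars mark class medians. The 12 pseudouridine synthases lie between -2.41 and -0.33 in the lapatinib combination, and several members right of 0 fall left of it with mitochondrial scaling.

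Promoters of 5 members that moved in opposite directions are shown, so that the windows can be read beside the values. RefSeq promoter windows of 300 bases around the gene start (GRCh38.p14) were matched by Entrez ID for 82 of the 100 members, with the first window listed for a gene. NSUN3 (chr3:94062811-94063110, plus strand), TRMT1L (chr1:185157049-185157348, minus strand) and DUS2 (chr16:68023034-68023333, plus strand) fell in the strong treatments. ALKBH5 (chr17:18183578-18183877, plus strand) and QTRT1 (chr19:10701189-10701488, plus strand) were raised in the combinations with TMM scaling, and the sign of QTRT1 in the lapatinib combination turned with mitochondrial scaling. Under mitochondrial scaling neither gene was called higher in either combination. Capitals mark matches on either strand to CCGGAAG, to GGGCGG, to CCAAT, to CACGTG, to TGACGTCA or to TATAAA, and no 2 matches to different motifs overlapped in these windows. The members shown and the motifs were chosen after values and sequences were seen.
NSUN3: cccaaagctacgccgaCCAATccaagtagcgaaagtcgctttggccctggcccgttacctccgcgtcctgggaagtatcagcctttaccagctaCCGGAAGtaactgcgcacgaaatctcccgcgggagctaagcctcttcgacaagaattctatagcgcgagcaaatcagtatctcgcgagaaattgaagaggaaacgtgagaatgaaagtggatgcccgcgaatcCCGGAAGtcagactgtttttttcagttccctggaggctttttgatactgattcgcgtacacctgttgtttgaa
TRMT1L: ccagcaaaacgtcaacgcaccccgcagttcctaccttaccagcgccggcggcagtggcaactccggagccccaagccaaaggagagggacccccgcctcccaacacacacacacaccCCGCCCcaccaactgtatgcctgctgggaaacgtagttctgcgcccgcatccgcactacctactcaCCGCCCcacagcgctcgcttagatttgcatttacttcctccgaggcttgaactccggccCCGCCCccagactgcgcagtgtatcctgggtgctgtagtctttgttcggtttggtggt
DUS2: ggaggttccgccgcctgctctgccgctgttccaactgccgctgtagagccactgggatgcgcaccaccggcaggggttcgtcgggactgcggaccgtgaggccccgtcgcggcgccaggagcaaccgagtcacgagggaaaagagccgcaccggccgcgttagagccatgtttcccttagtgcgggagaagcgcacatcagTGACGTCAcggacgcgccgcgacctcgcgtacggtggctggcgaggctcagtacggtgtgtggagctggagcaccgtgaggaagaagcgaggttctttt
ALKBH5: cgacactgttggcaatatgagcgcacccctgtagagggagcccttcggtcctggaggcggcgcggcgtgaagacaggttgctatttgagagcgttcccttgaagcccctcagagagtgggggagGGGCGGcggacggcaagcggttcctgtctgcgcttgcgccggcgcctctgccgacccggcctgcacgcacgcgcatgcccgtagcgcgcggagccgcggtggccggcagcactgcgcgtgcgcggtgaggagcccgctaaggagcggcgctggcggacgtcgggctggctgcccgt
QTRT1: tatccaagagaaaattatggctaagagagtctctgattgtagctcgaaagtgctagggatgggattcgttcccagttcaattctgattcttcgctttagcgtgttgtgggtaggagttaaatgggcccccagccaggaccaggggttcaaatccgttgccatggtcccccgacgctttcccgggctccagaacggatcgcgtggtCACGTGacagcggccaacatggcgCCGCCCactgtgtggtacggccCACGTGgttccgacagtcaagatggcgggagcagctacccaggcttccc
The NSUN3 window held 2 matches to CCGGAAG and 1 to CCAAT. The TRMT1L window held 3 to GGGCGG, and the DUS2 window 1 to TGACGTCA. ALKBH5 had 1 to GGGCGG, and QTRT1 had 1 to GGGCGG and 2 to CACGTG. None of the 5 windows held TATAAA. As background, CCGGAAG was in 10.7% of all promoters, 17.6% of those of genes tested and 24 of the 82 member promoters. GGGCGG was in 44.6% of all promoters, 66.5% of those of genes tested and 50 of the 82 member promoters. CCAAT was in 35.7% of all promoters, 36.5% of those of genes tested and 33 of the 82 member promoters. CACGTG was in 7.43% of all promoters, 9.63% of those of genes tested and 7 of the 82 member promoters. TGACGTCA was in 1.98% of all promoters, 3.12% of those of genes tested and 6 of the 82 member promoters. TATAAA was in 12% of all promoters, 6.53% of those of genes tested and 7 of the 82 member promoters. The matches are descriptions of letters, and binding was not measured.

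Adenosine methyltransferases methylate adenosine in messenger, small nuclear and ribosomal RNA. RNA of METTL3 and METTL14, the core writer of m6A, fell in each strong treatment, while protein and m6A were not measured in these libraries. Of 5 tested, the lapatinib combination lowered 4 and raised 0 (all genes 37.8% and 34.3%), the nilotinib combination lowered 4 and raised 0 (all genes 37.3% and 33.7%), and 1 μM THZ531 lowered 4 and raised 0 (all genes 36.8% and 33.1%). Over the adenosine methyltransferases, the median log2 FC was -0.94, -0.84 and -1.03 in that order, with single members between -2.33 and -0.14. METTL3, the catalytic subunit of the m6A writer, stood at 21.8, 21.8 and 22.6 CPM with DMSO, 24.1, 21.4 and 23 with 0.1 μM THZ531, 25.3, 21.2 and 21.8 with lapatinib and 22.9, 24 and 23 with nilotinib. Its level was 12.2, 12 and 10.4 CPM in the lapatinib combination, 13.3, 13 and 11.7 in the nilotinib combination and 12.1, 13 and 13.7 with 1 μM THZ531. METTL3 lay below every DMSO library with each strong treatment. METTL3 had a log2 FC of -0.93 (SE 0.08), -0.80 (SE 0.08) and -0.77 (SE 0.08), with adjusted p 4.89e-09, 4.58e-08 and 8.79e-08. In METTL3 17.4% of its exon bases lie in exons of TOX4 on the opposite strand, so its counts in unstranded libraries are uncertain, and TOX4 itself had a log2 FC of -1.28, -1.12 and -1.16. METTL14, the RNA-binding partner of METTL3, had 16.6, 16 and 16.2 CPM with DMSO, 14.9 to 19.3 in the 9 single-agent low-dose libraries, 8.29, 9.34 and 7.89 in the lapatinib combination, 8.9, 9.46 and 8.81 in the nilotinib combination and 8.4, 7.03 and 8.45 with 1 μM THZ531. METTL14 lay below every DMSO library with each strong treatment. METTL14 had a log2 FC of -0.94 (SE 0.08), -0.84 (SE 0.08) and -1.03 (SE 0.08), with adjusted p 2.91e-09, 1.34e-08 and 9.71e-10. METTL16, which methylates U6 small nuclear RNA, had 37.6, 38.7 and 37.2 CPM with DMSO, 35.7 to 39.98 in the 9 single-agent low-dose libraries, 11.5, 11.5 and 11.6 in the lapatinib combination, 12.8, 13.4 and 13.7 in the nilotinib combination and 16, 12.6 and 15.5 with 1 μM THZ531. METTL16 lay below every DMSO library with each strong treatment. METTL16 had a log2 FC of -1.71 (SE 0.08), -1.51 (SE 0.08) and -1.36 (SE 0.08), with adjusted p 1.89e-13, 1.22e-12 and 8.2e-12. METTL5, which methylates ribosomal RNA of the small subunit, had 35.4, 33.8 and 38.4 CPM with DMSO, 31.6 to 45.6 in the 9 single-agent low-dose libraries, 38.7, 28.9 and 30.2 in the lapatinib combination, 37.6, 29.6 and 28.3 in the nilotinib combination and 29.4, 31.8 and 30.2 with 1 μM THZ531. METTL5 lay in a range that overlapped DMSO with the lapatinib combination and the nilotinib combination and below every DMSO library with 1 μM THZ531. METTL5 had a log2 FC of -0.14 (SE 0.12), -0.17 (SE 0.12) and -0.23 (SE 0.12), with adjusted p 0.293, 0.193 and 0.0781. The METTL5 call began under library size alone with each strong treatment (-0.47, -0.47 and -0.49), and under mitochondrial scaling with each strong treatment (-0.82, -0.79 and -0.78), and with a replicate block with 1 μM THZ531 (-0.23), and without lapatinib combination replicate 1 with the lapatinib combination (-0.28), and without nilotinib combination replicate 1 with the nilotinib combination (-0.31), and without lapatinib combination replicate 1 or nilotinib combination replicate 1 with 1 μM THZ531 (-0.23). With TMM scaling and every library METTL5 passed the test in none of the strong treatments by edgeR. In METTL5 10.2% of its exon bases lie in exons of SSB on the opposite strand, so its counts are uncertain, and SSB itself had a log2 FC of 0.86, 0.84 and 0.86.

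**Figure D3:**
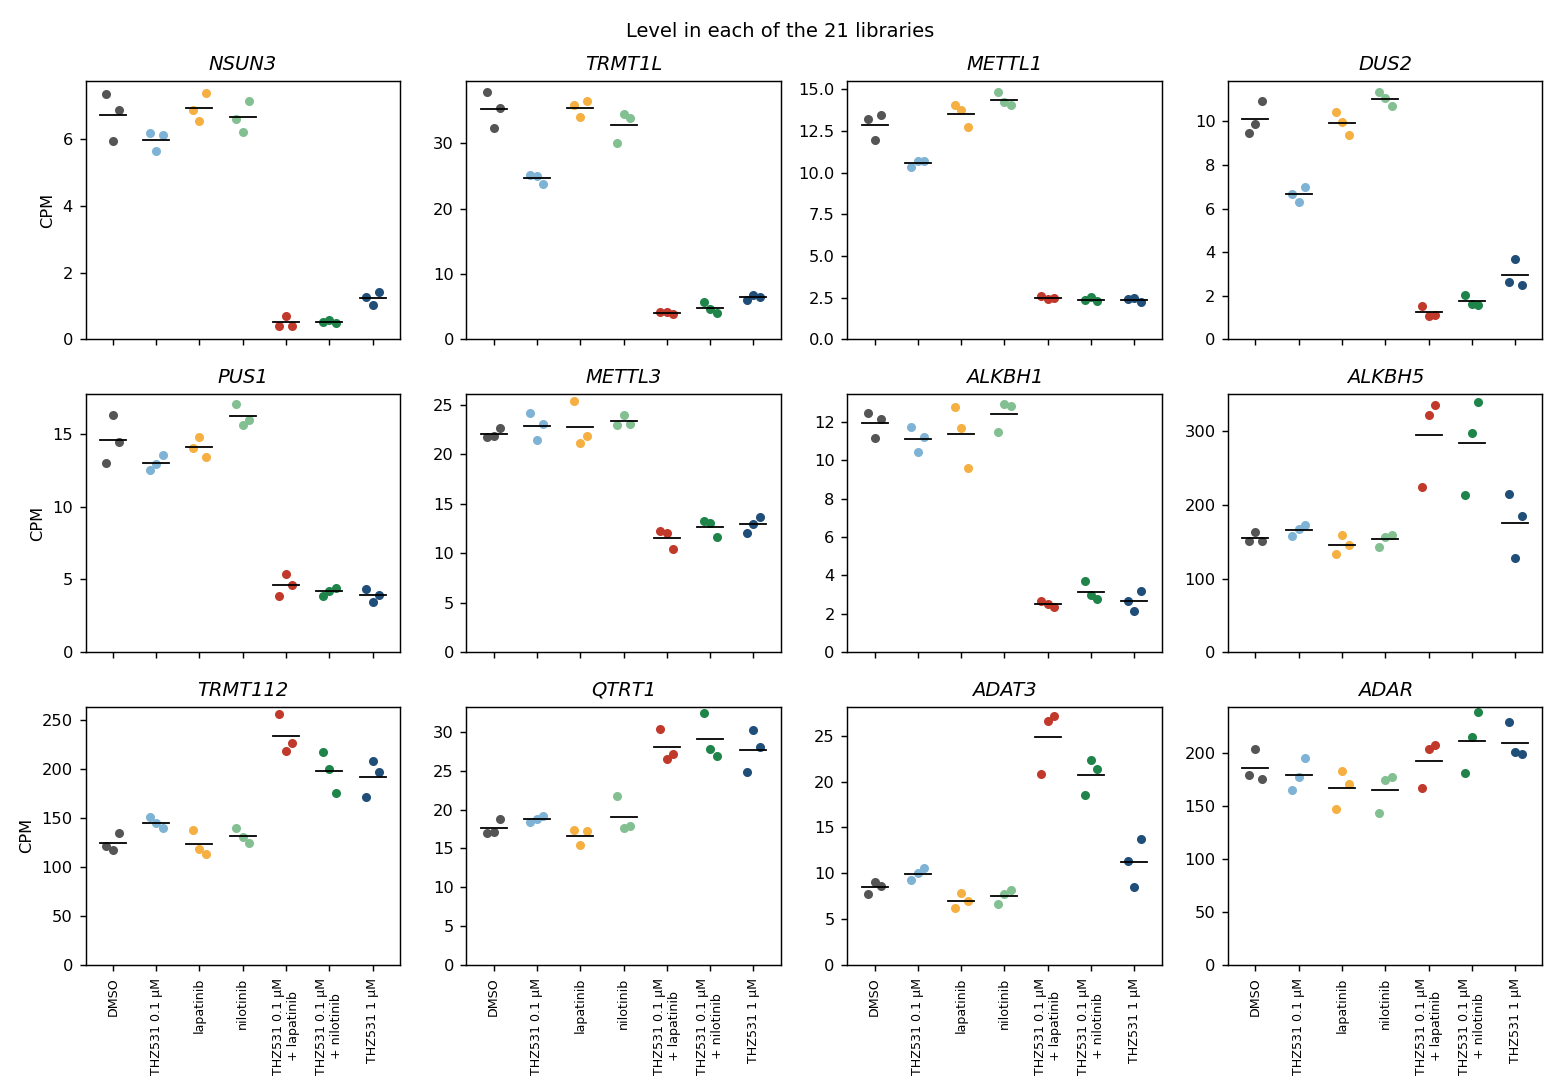
CPM (TMM scaling) of 12 members in each of the 21 libraries, by treatment, with bars at group means. NSUN3 lies between 5.95 and 7.35 with DMSO and at or below 1.41 in the strong treatments; ALKBH5 reaches 340.1 in the nilotinib combination. With mitochondrial scaling ADAR lies lower than with DMSO in each strong treatment, while with TMM its libraries overlap.

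AlkB dioxygenases oxidize methyl groups off nucleic acids or proteins, and in this class the direction differed between members. Of 8 tested, the lapatinib combination lowered 6 and raised 2 (all genes 37.8% and 34.3%), the nilotinib combination lowered 6 and raised 2 (all genes 37.3% and 33.7%), and 1 μM THZ531 lowered 5 and raised 1 (all genes 36.8% and 33.1%). Over the AlkB dioxygenases, the median log2 FC was -0.81, -0.64 and -0.87 in that order, with single members between -2.84 and 0.92. ALKBH5, a demethylase of m6A in messenger RNA, stood at 151, 164 and 150.4 CPM with DMSO, 158, 167 and 173 with 0.1 μM THZ531, 133, 159 and 145 with lapatinib and 143, 156 and 159.6 with nilotinib. Its level was 224, 323 and 336 CPM in the lapatinib combination, 214, 298 and 340.1 in the nilotinib combination and 215, 128 and 185 with 1 μM THZ531. ALKBH5 lay above every DMSO library with the lapatinib combination and the nilotinib combination and in a range that overlapped DMSO with 1 μM THZ531. ALKBH5 had a log2 FC of 0.92 (SE 0.17), 0.87 (SE 0.17) and 0.18 (SE 0.17), with adjusted p 6.5e-05, 0.000126 and 0.352, and under library size alone the sign turned, to -0.08 with 1 μM THZ531, and under mitochondrial scaling the sign turned, to -0.38 with 1 μM THZ531. The ALKBH5 call ended under mitochondrial scaling with the lapatinib combination (0.23) and the nilotinib combination (0.24), and began with 1 μM THZ531 without 1 μM THZ531 replicate 2 (0.36). The combinations were above 1 μM THZ531 when tested directly, with a log2 FC of 0.74 (SE 0.17, adjusted p 0.00219) for lapatinib and of 0.69 (SE 0.17, adjusted p 0.00463) for nilotinib. The ALKBH5 call ended with the nilotinib combination against 1 μM THZ531 in a fit of the compared groups alone (0.73). An unnamed gene on the opposite strand shares 11.3% of ALKBH5 exon bases, so its counts are uncertain. ALKBH1, a demethylase acting on tRNA, stood at 12.5, 11.1 and 12.1 CPM with DMSO, 11.7, 10.4 and 11.2 with 0.1 μM THZ531, 12.8, 11.7 and 9.61 with lapatinib and 11.5, 12.9 and 12.8 with nilotinib. Its level was 2.64, 2.49 and 2.37 CPM in the lapatinib combination, 3.68, 2.97 and 2.77 in the nilotinib combination and 2.66, 2.17 and 3.18 with 1 μM THZ531. ALKBH1 lay below every DMSO library with each strong treatment. ALKBH1 had a log2 FC of -2.25 (SE 0.13), -1.92 (SE 0.13) and -2.16 (SE 0.13), with adjusted p 8.18e-12, 7.42e-11 and 2.21e-11. ALKBH8, which methylates wobble uridine of tRNA, had 15.1, 13.8 and 14.6 CPM with DMSO, 11.6 to 16.3 in the 9 single-agent low-dose libraries, 6.4, 7.44 and 6.64 in the lapatinib combination, 8.45, 8.66 and 8.2 in the nilotinib combination and 6.31, 5.71 and 6.73 with 1 μM THZ531. ALKBH8 lay below every DMSO library with each strong treatment. ALKBH8 had a log2 FC of -1.09 (SE 0.09), -0.78 (SE 0.09) and -1.21 (SE 0.09), with adjusted p 1.32e-09, 1.55e-07 and 3.79e-10. ALKBH4, known for demethylating actin, had 6.39, 6.58 and 7.43 CPM with DMSO, 5.63 to 8.11 in the 9 single-agent low-dose libraries, 0.808, 1.15 and 1.41 in the lapatinib combination, 0.961, 0.821 and 1.06 in the nilotinib combination and 1.69, 0.765 and 1.4 with 1 μM THZ531. ALKBH4 lay below every DMSO library with each strong treatment. ALKBH4 had a log2 FC of -2.60 (SE 0.20), -2.84 (SE 0.20) and -2.40 (SE 0.20), with adjusted p 4.92e-10, 1.76e-10 and 1.72e-09. In ALKBH4 28.1% of its exon bases lie in exons of ORAI2 on the opposite strand, which makes its counts uncertain, and ORAI2 itself had a log2 FC of 0.00, 0.03 and 0.28. ALKBH7, a mitochondrial protein of the family, had 25.6, 25.3 and 27.1 CPM with DMSO, 23.4 to 32.2 in the 9 single-agent low-dose libraries, 49, 35.9 and 38.4 in the lapatinib combination, 48, 37.3 and 34 in the nilotinib combination and 31.9, 41.5 and 41.5 with 1 μM THZ531. ALKBH7 lay above every DMSO library with each strong treatment. ALKBH7 had a log2 FC of 0.66 (SE 0.13), 0.61 (SE 0.13) and 0.56 (SE 0.13), with adjusted p 0.000186, 0.000415 and 0.000999, and under mitochondrial scaling the sign turned, to -0.02 with the lapatinib combination. The ALKBH7 call ended under mitochondrial scaling with the nilotinib combination (0.00) and 1 μM THZ531 (0.03). The PSPN exons on the opposite strand cover 10.6% of ALKBH7 exon bases, and PSPN averaged 0.131 CPM with DMSO and 0.642, 0.638 and 0.499 in the strong treatments.

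Cytosine methyltransferases place 5-methylcytosine or 3-methylcytosine in tRNA and ribosomal RNA; METTL2A and METTL2B are near-identical paralogs whose separate counts are uncertain. Of 9 tested, the lapatinib combination lowered 9 and raised 0 (all genes 37.8% and 34.3%), the nilotinib combination lowered 7 and raised 0 (all genes 37.3% and 33.7%), and 1 μM THZ531 lowered 8 and raised 0 (all genes 36.8% and 33.1%). Over the cytosine methyltransferases, the median log2 FC was -1.41, -1.29 and -1.31 in that order, with single members between -3.72 and 0.03. NSUN3, which methylates the wobble cytosine of mitochondrial methionine tRNA, stood at 7.35, 5.95 and 6.87 CPM with DMSO, 6.17, 5.62 and 6.1 with 0.1 μM THZ531, 6.85, 6.53 and 7.38 with lapatinib and 6.58, 6.2 and 7.14 with nilotinib. Its level was 0.415, 0.7002 and 0.412 CPM in the lapatinib combination, 0.508, 0.594 and 0.495 in the nilotinib combination and 1.26, 1.02 and 1.41 with 1 μM THZ531. NSUN3 lay below every DMSO library with each strong treatment. NSUN3 had a log2 FC of -3.72 (SE 0.17), -3.65 (SE 0.17) and -2.45 (SE 0.15), with adjusted p 1.22e-13, 1.62e-13 and 2.12e-11. It was lower in the combinations than with 1 μM THZ531, with a log2 FC of -1.27 (SE 0.17, adjusted p 1.78e-05) for lapatinib and of -1.21 (SE 0.17, adjusted p 3.48e-05) for nilotinib. NSUN2, a methyltransferase of many cytosolic tRNAs, stood at 151, 161 and 152 CPM with DMSO, 151, 150.3 and 157 with 0.1 μM THZ531, 144, 152 and 146 with lapatinib and 142, 149.8 and 157 with nilotinib. Its level was 128, 143 and 134 CPM in the lapatinib combination, 140.5, 148 and 149 in the nilotinib combination and 162, 158 and 152 with 1 μM THZ531. NSUN2 lay below every DMSO library with the lapatinib combination and the nilotinib combination and in a range that overlapped DMSO with 1 μM THZ531. NSUN2 had a log2 FC of -0.20 (SE 0.06), -0.09 (SE 0.06) and 0.03 (SE 0.06), with adjusted p 0.00337, 0.173 and 0.681, and under library size alone the sign turned, to -0.23 with 1 μM THZ531, and under mitochondrial scaling the sign turned, to -0.52 with 1 μM THZ531. The NSUN2 call began with the nilotinib combination under library size alone (-0.39) and under mitochondrial scaling (-0.71).

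The largest class holds tRNA methyltransferases with their partners. Of 22 tested, the lapatinib combination lowered 17 and raised 3 (all genes 37.8% and 34.3%), the nilotinib combination lowered 17 and raised 3 (all genes 37.3% and 33.7%), and 1 μM THZ531 lowered 17 and raised 3 (all genes 36.8% and 33.1%). Over the tRNA methyltransferases and partners, the median log2 FC was -0.75, -0.78 and -0.89 in that order, with single members between -3.11 and 0.91. TRMT1L, a paralog of the tRNA guanosine methyltransferase TRMT1, stood at 37.8, 32.3 and 35.3 CPM with DMSO, 25.1, 25 and 23.8 with 0.1 μM THZ531, 35.8, 34 and 36.4 with lapatinib and 29.97, 34.5 and 33.8 with nilotinib. Its level was 4.14, 4.14 and 3.95 CPM in the lapatinib combination, 5.69, 4.59 and 4.003 in the nilotinib combination and 6.08, 6.81 and 6.41 with 1 μM THZ531. TRMT1L lay below every DMSO library with each strong treatment. TRMT1L had a log2 FC of -3.11 (SE 0.10), -2.88 (SE 0.10) and -2.45 (SE 0.10), with adjusted p 2.96e-15, 7.72e-15 and 1.12e-13. METTL1, which makes 7-methylguanosine in tRNA, stood at 13.2, 12 and 13.4 CPM with DMSO, 10.3, 10.7 and 10.7 with 0.1 μM THZ531, 14.1, 13.7 and 12.7 with lapatinib and 14.9, 14.2 and 14 with nilotinib. Its level was 2.58, 2.45 and 2.51 CPM in the lapatinib combination, 2.35, 2.53 and 2.29 in the nilotinib combination and 2.41, 2.46 and 2.26 with 1 μM THZ531. METTL1 lay below every DMSO library with each strong treatment. METTL1 had a log2 FC of -2.36 (SE 0.07), -2.43 (SE 0.07) and -2.44 (SE 0.07), with adjusted p 1.47e-15, 1.1e-15 and 3.65e-15. THUMPD3, a tRNA guanosine methyltransferase that works with TRMT112, had 47.9, 44.4 and 47.1 CPM with DMSO, 38.3 to 48.2 in the 9 single-agent low-dose libraries, 7.98, 8.28 and 6.96 in the lapatinib combination, 8.93, 8.33 and 7.73 in the nilotinib combination and 10.1, 10.2 and 9.99 with 1 μM THZ531. THUMPD3 lay below every DMSO library with each strong treatment. THUMPD3 had a log2 FC of -2.59 (SE 0.08), -2.48 (SE 0.08) and -2.20 (SE 0.07), with adjusted p 5.96e-16, 1.04e-15 and 8.91e-15. In THUMPD3 21.4% of its exon bases lie in exons of THUMPD3-AS1 on the opposite strand, which averaged 2.27 CPM with DMSO and 3.26, 3.27 and 3.47 in the strong treatments, so the THUMPD3 counts are uncertain. TRMT6, a subunit of the enzyme for 1-methyladenosine in tRNA, had 30.1, 29 and 29.8 CPM with DMSO, 28.5 to 32.7 in the 9 single-agent low-dose libraries, 18.9, 20.2 and 19.5 in the lapatinib combination, 18.9, 18.5 and 18.6 in the nilotinib combination and 21.8, 21.4 and 21.7 with 1 μM THZ531. TRMT6 lay below every DMSO library with each strong treatment. TRMT6 had a log2 FC of -0.60 (SE 0.06), -0.67 (SE 0.06) and -0.46 (SE 0.06), with adjusted p 7.48e-09, 1.77e-09 and 4.59e-07. TRMT61A, the catalytic partner of TRMT6, had 15.2, 20.5 and 16.2 CPM with DMSO, 15.2 to 20.3 in the 9 single-agent low-dose libraries, 9.25, 12.9 and 12.1 in the lapatinib combination, 10.1, 10.5 and 10.02 in the nilotinib combination and 12.9, 14 and 13.1 with 1 μM THZ531. TRMT61A lay below every DMSO library with each strong treatment. TRMT61A had a log2 FC of -0.60 (SE 0.12), -0.76 (SE 0.12) and -0.38 (SE 0.12), with adjusted p 0.000122, 8.98e-06 and 0.00738. The TRMT61A call ended with 1 μM THZ531 without DMSO replicate 2 (-0.24).

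TRMT112, an activator of several methyltransferases, stood at 121, 117 and 134 CPM with DMSO, 151, 145 and 139 with 0.1 μM THZ531, 138, 118 and 113 with lapatinib and 139, 130.5 and 125 with nilotinib. Its level was 256, 218 and 226 CPM in the lapatinib combination, 218, 199.6 and 175 in the nilotinib combination and 172, 207 and 196 with 1 μM THZ531. TRMT112 lay above every DMSO library with each strong treatment. TRMT112 had a log2 FC of 0.91 (SE 0.09), 0.67 (SE 0.09) and 0.63 (SE 0.09), with adjusted p 3.64e-08, 2.68e-06 and 6.46e-06. The TRMT112 call ended under mitochondrial scaling with each strong treatment (0.23, 0.05 and 0.09). In TRMT112 35.0% of its exon bases lie in exons of ESRRA on the opposite strand, which makes its counts in unstranded libraries uncertain, and ESRRA itself had a log2 FC of -1.55, -1.65 and -0.86. FTSJ1, which methylates ribose in the anticodon loop, had 32.8, 32.3 and 35.9 CPM with DMSO, 32.9 to 38.1 in the 9 single-agent low-dose libraries, 49.7, 41.7 and 43.8 in the lapatinib combination, 45.1, 44.5 and 41.1 in the nilotinib combination and 37.5, 41.1 and 41.8 with 1 μM THZ531. FTSJ1 lay above every DMSO library with each strong treatment. FTSJ1 had a log2 FC of 0.42 (SE 0.08), 0.37 (SE 0.08) and 0.25 (SE 0.08), with adjusted p 5.29e-05, 0.000204 and 0.00588, and under library size alone the sign turned, to -0.01 with 1 μM THZ531, and under mitochondrial scaling the sign turned, to -0.26 with the lapatinib combination and -0.25 with the nilotinib combination and -0.28 with 1 μM THZ531. The FTSJ1 call ended under library size alone with the lapatinib combination (0.09) and the nilotinib combination (0.07).

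Pseudouridine synthases convert uridine to pseudouridine in tRNA, ribosomal RNA and some messenger RNA, and no member of this class was raised. Of 12 tested, the lapatinib combination lowered 12 and raised 0 (all genes 37.8% and 34.3%), the nilotinib combination lowered 11 and raised 0 (all genes 37.3% and 33.7%), and 1 μM THZ531 lowered 12 and raised 0 (all genes 36.8% and 33.1%). Over the pseudouridine synthases, the median log2 FC was -1.13, -1.12 and -1.12 in that order, with single members between -2.41 and -0.21. PUS1, which acts on cytosolic and mitochondrial tRNA, stood at 13, 16.3 and 14.5 CPM with DMSO, 12.5, 12.9 and 13.6 with 0.1 μM THZ531, 14.1, 14.8 and 13.4 with lapatinib and 17.1, 15.6 and 16 with nilotinib. Its level was 3.83, 5.39 and 4.62 CPM in the lapatinib combination, 3.89, 4.24 and 4.41 in the nilotinib combination and 4.38, 3.42 and 3.93 with 1 μM THZ531. PUS1 lay below every DMSO library with each strong treatment. PUS1 had a log2 FC of -1.66 (SE 0.11), -1.80 (SE 0.11) and -1.90 (SE 0.11), with adjusted p 7e-11, 2.36e-11 and 1.75e-11. PUS7, a synthase of tRNA and messenger RNA, had 30.5, 30.1 and 29.1 CPM with DMSO, 24.7 to 33.6 in the 9 single-agent low-dose libraries, 21, 19.1 and 17.9 in the lapatinib combination, 22.1, 22.2 and 23.7 in the nilotinib combination and 23.3, 22.3 and 21.5 with 1 μM THZ531. PUS7 lay below every DMSO library with each strong treatment. PUS7 had a log2 FC of -0.63 (SE 0.07), -0.40 (SE 0.07) and -0.42 (SE 0.07), with adjusted p 1.2e-07, 4.24e-05 and 2.47e-05. TRUB1, which modifies the T loop of tRNA, had 37.8, 27.4 and 31.5 CPM with DMSO, 27.3 to 38.3 in the 9 single-agent low-dose libraries, 15.6, 15.4 and 13.1 in the lapatinib combination, 16.4, 15.5 and 18.6 in the nilotinib combination and 23.2, 20.8 and 20.6 with 1 μM THZ531. TRUB1 lay below every DMSO library with each strong treatment. TRUB1 had a log2 FC of -1.13 (SE 0.12), -0.94 (SE 0.12) and -0.58 (SE 0.12), with adjusted p 3.97e-08, 5.49e-07 and 0.000166. RPUSD1, a family member by sequence, had 10.04, 11.1 and 10.4 CPM with DMSO, 6.23 to 10.9 in the 9 single-agent low-dose libraries, 3.76, 4.03 and 4.84 in the lapatinib combination, 4.06, 4.86 and 4.45 in the nilotinib combination and 4.28, 3.24 and 3.86 with 1 μM THZ531. RPUSD1 lay below every DMSO library with each strong treatment. RPUSD1 had a log2 FC of -1.32 (SE 0.11), -1.23 (SE 0.11) and -1.47 (SE 0.11), with adjusted p 1.87e-09, 5.05e-09 and 5.73e-10. RPUSD4, a mitochondrial synthase, had 16.6, 16.9 and 16.7 CPM with DMSO, 15.7 to 21.6 in the 9 single-agent low-dose libraries, 9.31, 9.49 and 9.44 in the lapatinib combination, 10.4, 11.5 and 10.4 in the nilotinib combination and 8.48, 5.81 and 8.3 with 1 μM THZ531. RPUSD4 lay below every DMSO library with each strong treatment. RPUSD4 had a log2 FC of -0.83 (SE 0.10), -0.64 (SE 0.10) and -1.15 (SE 0.11), with adjusted p 6.08e-07, 1.83e-05 and 8.62e-09.

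Wobble uridine is modified by the Elongator complex and thiolated by CTU1 with CTU2. Of 8 tested, the lapatinib combination lowered 6 and raised 2 (all genes 37.8% and 34.3%), the nilotinib combination lowered 6 and raised 2 (all genes 37.3% and 33.7%), and 1 μM THZ531 lowered 5 and raised 2 (all genes 36.8% and 33.1%). Over the wobble uridine enzymes, the median log2 FC was -0.43, -0.30 and -0.34 in that order, with single members between -1.54 and 0.68. ELP3, the catalytic subunit of Elongator, had 77.1, 73.7 and 77.9 CPM with DMSO, 74.2 to 82.2 in the 9 single-agent low-dose libraries, 39.1, 35.7 and 36.7 in the lapatinib combination, 40.9, 39.2 and 39.5 in the nilotinib combination and 41, 41.9 and 41.7 with 1 μM THZ531. ELP3 lay below every DMSO library with each strong treatment. ELP3 had a log2 FC of -1.04 (SE 0.06), -0.94 (SE 0.06) and -0.88 (SE 0.06), with adjusted p 1.86e-12, 9.45e-12 and 3.55e-11. CTU1, the catalytic subunit of thiolation, had 7.67, 8.8 and 8.65 CPM with DMSO, 7.12 to 9.54 in the 9 single-agent low-dose libraries, 3.02, 3.7 and 3.28 in the lapatinib combination, 2.97, 3.68 and 2.78 in the nilotinib combination and 2.87, 2.12 and 3.63 with 1 μM THZ531. CTU1 lay below every DMSO library with each strong treatment. CTU1 had a log2 FC of -1.33 (SE 0.14), -1.41 (SE 0.14) and -1.54 (SE 0.14), with adjusted p 7.3e-08, 3.42e-08 and 1.2e-08. CTU2, the partner of CTU1, stood at 14.1, 14.7 and 14.2 CPM with DMSO, 19.7, 18.7 and 20.04 with 0.1 μM THZ531, 14.8, 13.1 and 13.9 with lapatinib and 18.1, 14.5 and 14.3 with nilotinib. Its level was 24.2, 20.8 and 22.7 CPM in the lapatinib combination, 24.7, 22.5 and 21.5 in the nilotinib combination and 17, 18.2 and 20.2 with 1 μM THZ531. CTU2 lay above every DMSO library with each strong treatment. CTU2 had a log2 FC of 0.66 (SE 0.09), 0.68 (SE 0.09) and 0.37 (SE 0.09), with adjusted p 2.81e-06, 2.05e-06 and 0.00168, and under mitochondrial scaling the sign turned, to -0.02 with the lapatinib combination and -0.16 with 1 μM THZ531. The CTU2 call ended under library size alone with 1 μM THZ531 (0.11), and under mitochondrial scaling with the nilotinib combination (0.07). In CTU2 11.5% of its exon bases lie in exons of PIEZO1 on the opposite strand, and PIEZO1 itself had a log2 FC of 0.79, 0.83 and 0.85, so the CTU2 values are uncertain.

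Other enzymes of tRNA bases make isopentenyladenosine, dihydrouridine, queuosine and wybutosine. Of 12 tested, the lapatinib combination lowered 7 and raised 2 (all genes 37.8% and 34.3%), the nilotinib combination lowered 7 and raised 3 (all genes 37.3% and 33.7%), and 1 μM THZ531 lowered 8 and raised 1 (all genes 36.8% and 33.1%). Over these enzymes, the median log2 FC was -0.54, -0.63 and -0.61 in that order, with single members between -3.03 and 0.72. DUS2, a dihydrouridine synthase, stood at 9.47, 9.89 and 10.9 CPM with DMSO, 6.65, 6.31 and 6.98 with 0.1 μM THZ531, 10.4, 9.99 and 9.35 with lapatinib and 11.3, 11.1 and 10.7 with nilotinib. Its level was 1.53, 1.06 and 1.11 CPM in the lapatinib combination, 2.04, 1.63 and 1.56 in the nilotinib combination and 2.64, 3.67 and 2.5 with 1 μM THZ531. DUS2 lay below every DMSO library with each strong treatment. DUS2 had a log2 FC of -3.03 (SE 0.15), -2.53 (SE 0.14) and -1.78 (SE 0.14), with adjusted p 5.04e-13, 4.63e-12 and 6.35e-10. It was lower in the combinations than with 1 μM THZ531, at a log2 FC of -1.25 (SE 0.15, adjusted p 4.23e-06) for lapatinib and of -0.75 (SE 0.14, adjusted p 0.000644) for nilotinib. QTRT1, the catalytic subunit for queuine insertion, stood at 17, 17.2 and 18.8 CPM with DMSO, 18.5, 18.7 and 19.2 with 0.1 μM THZ531, 17.3, 15.4 and 17.3 with lapatinib and 21.8, 17.6 and 17.9 with nilotinib. Its level was 30.3, 26.5 and 27.2 CPM in the lapatinib combination, 32.4, 27.8 and 27 in the nilotinib combination and 24.8, 30.3 and 28.1 with 1 μM THZ531. QTRT1 lay above every DMSO library with each strong treatment. QTRT1 had a log2 FC of 0.67 (SE 0.10), 0.72 (SE 0.10) and 0.65 (SE 0.10), with adjusted p 3.84e-06, 1.51e-06 and 5.86e-06, and under mitochondrial scaling the sign turned, to -0.01 with the lapatinib combination. The QTRT1 call ended under mitochondrial scaling with the nilotinib combination (0.10) and 1 μM THZ531 (0.12). QTRT2, its partner subunit, had 34.6, 35 and 34.2 CPM with DMSO, 32.8 to 38.7 in the 9 single-agent low-dose libraries, 18.8, 18.6 and 18.2 in the lapatinib combination, 18, 18.2 and 17.1 in the nilotinib combination and 14.7, 10.3 and 15.2 with 1 μM THZ531. QTRT2 lay below every DMSO library with each strong treatment. QTRT2 had a log2 FC of -0.90 (SE 0.10), -0.96 (SE 0.10) and -1.37 (SE 0.10), with adjusted p 8.48e-08, 3.68e-08 and 2.99e-10.

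TYW2, an enzyme of wybutosine synthesis, had 19.3, 17.8 and 19.7 CPM with DMSO, 17.6 to 23 in the 9 single-agent low-dose libraries, 3.55, 4.19 and 3.89 in the lapatinib combination, 2.86, 3.41 and 3.18 in the nilotinib combination and 4.7, 2.6 and 5.84 with 1 μM THZ531. TYW2 lay below every DMSO library with each strong treatment. TYW2 had a log2 FC of -2.29 (SE 0.18), -2.58 (SE 0.18) and -2.11 (SE 0.17), with adjusted p 4.58e-10, 1.01e-10 and 1.81e-09. TRIT1, which makes isopentenyladenosine, had 22.1, 20.4 and 22.2 CPM with DMSO, 18.9 to 24.5 in the 9 single-agent low-dose libraries, 24, 23.8 and 21.5 in the lapatinib combination, 27.7, 25.9 and 23.5 in the nilotinib combination and 18.3, 18.1 and 19.3 with 1 μM THZ531. TRIT1 lay in a range that overlapped DMSO with the lapatinib combination and above every DMSO library with the nilotinib combination and below every DMSO library with 1 μM THZ531. TRIT1 had a log2 FC of 0.10 (SE 0.08), 0.25 (SE 0.08) and -0.21 (SE 0.08), with adjusted p 0.264, 0.00673 and 0.0192, and under library size alone the sign turned, to -0.23 with the lapatinib combination and -0.05 with the nilotinib combination, and under mitochondrial scaling the sign turned, to -0.58 with the lapatinib combination and -0.36 with the nilotinib combination. The TRIT1 call ended with 1 μM THZ531 under DESeq2's size factors (-0.18), in a fit of the compared groups alone (-0.19), by DESeq2 (-0.19) and without DMSO replicate 1 or 3 or 1 μM THZ531 replicate 1 or 2 (-0.21 to -0.19). TRIT1 was called in opposite directions in the nilotinib combination and with 1 μM THZ531, and tested directly between them its log2 FC was 0.47 (SE 0.08, adjusted p 0.000161). TYW1B, a close paralog of TYW1, so that reads of the pair may be mixed, had 9.79, 9.95 and 9.62 CPM with DMSO, 8.72 to 12.6 in the 9 single-agent low-dose libraries, 6.69, 6.67 and 7.19 in the lapatinib combination, 5.76, 6.24 and 7.05 in the nilotinib combination and 7.55, 5.86 and 7.03 with 1 μM THZ531. TYW1B lay below every DMSO library with each strong treatment. TYW1B had a log2 FC of -0.52 (SE 0.09), -0.62 (SE 0.09) and -0.52 (SE 0.09), with adjusted p 3.2e-05, 3.28e-06 and 2.98e-05. DUS3L, a dihydrouridine synthase, had 25.5, 26.9 and 28.8 CPM with DMSO, 23.5 to 34.2 in the 9 single-agent low-dose libraries, 35.4, 35.2 and 33.3 in the lapatinib combination, 35.7, 33.8 and 29.3 in the nilotinib combination and 27.2, 29.5 and 30.2 with 1 μM THZ531. DUS3L lay above every DMSO library with the lapatinib combination and the nilotinib combination and in a range that overlapped DMSO with 1 μM THZ531. DUS3L had a log2 FC of 0.35 (SE 0.08), 0.28 (SE 0.08) and 0.10 (SE 0.08), with adjusted p 0.000808, 0.00523 and 0.312, and under library size alone the sign turned, to -0.02 with the nilotinib combination and -0.16 with 1 μM THZ531, and under mitochondrial scaling the sign turned, to -0.33 with the lapatinib combination and -0.33 with the nilotinib combination and -0.44 with 1 μM THZ531. The DUS3L call ended with the lapatinib combination under library size alone (0.03).

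Deaminases make inosine in double-stranded RNA or in tRNA, there among others at the wobble position. Of 5 tested, the lapatinib combination lowered 3 and raised 1 (all genes 37.8% and 34.3%), the nilotinib combination lowered 3 and raised 1 (all genes 37.3% and 33.7%), and 1 μM THZ531 lowered 3 and raised 1 (all genes 36.8% and 33.1%). Over the deaminases, the median log2 FC was -0.41, -0.50 and -0.64 in that order, with single members between -1.87 and 1.55. ADAR, which edits double-stranded RNA, stood at 179, 205 and 176 CPM with DMSO, 165, 178 and 196 with 0.1 μM THZ531, 147, 184 and 171 with lapatinib and 144, 175 and 178 with nilotinib. Its level was 167, 204 and 208 CPM in the lapatinib combination, 182, 215 and 239.5 in the nilotinib combination and 229.9, 201 and 199 with 1 μM THZ531. ADAR lay in a range that overlapped DMSO with each strong treatment. ADAR had a log2 FC of 0.05 (SE 0.12), 0.18 (SE 0.12) and 0.17 (SE 0.12), with adjusted p 0.7, 0.156 and 0.192, and under library size alone the sign turned, to -0.28 with the lapatinib combination and -0.12 with the nilotinib combination and -0.09 with 1 μM THZ531, and under mitochondrial scaling the sign turned, to -0.63 with the lapatinib combination and -0.44 with the nilotinib combination and -0.38 with 1 μM THZ531. The ADAR call began with the nilotinib combination without nilotinib combination replicate 1 (0.29). With TMM scaling and every library ADAR passed the test in none of the strong treatments by edgeR. ADARB1, an editor of neuronal messenger RNA among others, had 20.4, 22.3 and 21.1 CPM with DMSO, 21.6 to 31.8 in the 9 single-agent low-dose libraries, 14.2, 18 and 15.9 in the lapatinib combination, 14.6, 15.1 and 15.3 in the nilotinib combination and 12.9, 11.7 and 14.2 with 1 μM THZ531. With nilotinib alone ADARB1 averaged 27.9 CPM, at a log2 FC of 0.39 (SE 0.10, adjusted p 0.094), and did not pass the test. ADARB1 lay below every DMSO library with each strong treatment. ADARB1 had a log2 FC of -0.41 (SE 0.10), -0.50 (SE 0.10) and -0.72 (SE 0.10), with adjusted p 0.00137, 0.000201 and 3.65e-06. ADAT2, the catalytic subunit of the wobble deaminase, had 4.5, 4.41 and 4.04 CPM with DMSO, 4.27 to 5.64 in the 9 single-agent low-dose libraries, 1.33, 1.31 and 1.35 in the lapatinib combination, 0.961, 1.42 and 1.56 in the nilotinib combination and 1.33, 0.796 and 1.41 with 1 μM THZ531. ADAT2 lay below every DMSO library with each strong treatment. ADAT2 had a log2 FC of -1.70 (SE 0.17), -1.72 (SE 0.17) and -1.87 (SE 0.17), with adjusted p 1.8e-08, 1.63e-08 and 6.46e-09. ADAT3, its partner subunit, stood at 7.76, 9.09 and 8.59 CPM with DMSO, 9.24, 10.01 and 10.6 with 0.1 μM THZ531, 6.23, 7.83 and 7.01 with lapatinib and 6.6, 7.73 and 8.21 with nilotinib. Its level was 20.9, 26.7 and 27.1 CPM in the lapatinib combination, 18.6, 22.3 and 21.4 in the nilotinib combination and 11.4, 8.51 and 13.7 with 1 μM THZ531. ADAT3 lay above every DMSO library with the lapatinib combination and the nilotinib combination and in a range that overlapped DMSO with 1 μM THZ531. ADAT3 had a log2 FC of 1.55 (SE 0.14), 1.29 (SE 0.14) and 0.40 (SE 0.14), with adjusted p 7.72e-09, 1.14e-07 and 0.0174, and under mitochondrial scaling the sign turned, to -0.13 with 1 μM THZ531. The ADAT3 call ended with 1 μM THZ531 under library size alone (0.14) and without DMSO replicate 1 or 1 μM THZ531 replicate 3 (0.23 to 0.34). In ADAT3 25.0% of its exon bases lie in exons of SCAMP4 on the same strand, so its counts are uncertain, and SCAMP4 itself had a log2 FC of 0.31, 0.27 and 0.40. It was above 1 μM THZ531 in the combinations, with a log2 FC of 1.15 (SE 0.14, adjusted p 6.17e-06) for lapatinib and of 0.89 (SE 0.14, adjusted p 0.000111) for nilotinib.

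Of the ribosomal RNA and mitoribosome factors, METTL15 methylates mitochondrial ribosomal RNA. Of 3 tested, the lapatinib combination lowered 3 and raised 0 (all genes 37.8% and 34.3%), the nilotinib combination lowered 3 and raised 0 (all genes 37.3% and 33.7%), and 1 μM THZ531 lowered 3 and raised 0 (all genes 36.8% and 33.1%). Over the rRNA and mitoribosome factors, the median log2 FC was -1.59, -1.33 and -0.92 in that order, with single members between -2.24 and -0.28. METTL15, the mitochondrial enzyme, had 14.2, 11.1 and 12.9 CPM with DMSO, 8.39 to 14.2 in the 9 single-agent low-dose libraries, 2.93, 2.41 and 2.71 in the lapatinib combination, 3.5, 2.21 and 3.27 in the nilotinib combination and 6.5, 7.98 and 5.7 with 1 μM THZ531. METTL15 lay below every DMSO library with each strong treatment. METTL15 had a log2 FC of -2.24 (SE 0.15), -2.08 (SE 0.15) and -0.92 (SE 0.14), with adjusted p 5.11e-11, 1.46e-10 and 8.63e-06. The combinations were below 1 μM THZ531, with a log2 FC of -1.33 (SE 0.15, adjusted p 2.27e-06) for lapatinib and of -1.17 (SE 0.15, adjusted p 9.21e-06) for nilotinib. The remaining METTL proteins act on proteins or small molecules or have no established substrate. Of 10 tested, the lapatinib combination lowered 6 and raised 3 (all genes 37.8% and 34.3%), the nilotinib combination lowered 6 and raised 3 (all genes 37.3% and 33.7%), and 1 μM THZ531 lowered 6 and raised 3 (all genes 36.8% and 33.1%). Over these METTL proteins, the median log2 FC was -0.73, -0.58 and -0.47 in that order, with single members between -2.23 and 1.43. METTL18, a histidine methyltransferase of a ribosomal protein, had 7.17, 5.43 and 6.88 CPM with DMSO, 5.21 to 7.22 in the 9 single-agent low-dose libraries, 1.91, 2.12 and 2.46 in the lapatinib combination, 1.43, 1.52 and 1.47 in the nilotinib combination and 1.51, 0.89 and 1.74 with 1 μM THZ531. METTL18 lay below every DMSO library with each strong treatment. METTL18 had a log2 FC of -1.58 (SE 0.16), -2.14 (SE 0.17) and -2.23 (SE 0.17), with adjusted p 3.68e-08, 7.52e-10 and 5.58e-10. METTL23, a protein arginine methyltransferase, had 16.6, 17.2 and 20.3 CPM with DMSO, 11.6 to 20.5 in the 9 single-agent low-dose libraries, 4.42, 4.19 and 3.73 in the lapatinib combination, 4.79, 4.46 and 3.04 in the nilotinib combination and 5.85, 6.82 and 5.52 with 1 μM THZ531. METTL23 lay below every DMSO library with each strong treatment. METTL23 had a log2 FC of -2.13 (SE 0.13), -2.14 (SE 0.13) and -1.57 (SE 0.13), with adjusted p 2.01e-11, 2.06e-11 and 1.82e-09. An unnamed gene on the same strand shares 21.1% of METTL23 exon bases, so its counts are uncertain. METTL26, with no established substrate, had 34.3, 36.7 and 36.2 CPM with DMSO, 31.2 to 42.3 in the 9 single-agent low-dose libraries, 67.2, 58.4 and 61.5 in the lapatinib combination, 62.7, 55.8 and 50.5 in the nilotinib combination and 51, 60.6 and 60.1 with 1 μM THZ531. METTL26 lay above every DMSO library with each strong treatment. METTL26 had a log2 FC of 0.80 (SE 0.09), 0.66 (SE 0.09) and 0.68 (SE 0.09), with adjusted p 1.62e-07, 2.63e-06 and 1.81e-06. The METTL26 call ended under mitochondrial scaling with each strong treatment (0.12, 0.04 and 0.15). METTL27, also with no established substrate, had 0.806, 0.837 and 0.876 CPM with DMSO, 0.559 to 1.2 in the 9 single-agent low-dose libraries, 2.15, 2.13 and 2.51 in the lapatinib combination, 2.17, 2.02 and 1.72 in the nilotinib combination and 1.43, 1.74 and 1.41 with 1 μM THZ531. METTL27 lay above every DMSO library with each strong treatment. METTL27 had a log2 FC of 1.43 (SE 0.18), 1.23 (SE 0.18) and 0.86 (SE 0.18), with adjusted p 6.97e-07, 5.48e-06 and 0.000331. The METTL27 call ended with 1 μM THZ531 under mitochondrial scaling (0.32). The pair of NSUN5 pseudogenes matched by the rule passed the test in none of the strong treatments.

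The single agents other than 1 μM THZ531 moved few members. THZ531 at 0.1 μM lowered 7 and raised 3 of 96, against 4.31% and 1.78% of all genes, with a median log2 FC of 0.04 over members and 0.01 over all genes. DUS2 fell at a log2 FC of -0.60 (SE 0.13, adjusted p 0.00821). RPUSD1 fell at a log2 FC of -0.59 (SE 0.11, adjusted p 0.00232). METTL23 fell at a log2 FC of -0.57 (SE 0.12, adjusted p 0.00931). The METTL23 call ended without DMSO replicate 3 or 0.1 μM THZ531 replicate 2 (-0.54 to -0.47). These, with METTL15 and TRMT1L, fell again in the strong treatments. METTL15 fell at a log2 FC of -0.53 (SE 0.14, adjusted p 0.0267). The METTL15 call ended without DMSO replicate 1 or 3 or 0.1 μM THZ531 replicate 1, 2 or 3 (-0.57 to -0.44). TRMT1L fell at a log2 FC of -0.51 (SE 0.09, adjusted p 0.00258). The enzymes raised by the low dose were CTU2, TYW1B and DUS3L. CTU2 rose at a log2 FC of 0.45 (SE 0.09, adjusted p 0.00669). Of these, TYW1B was below DMSO in each strong treatment. TYW1B rose at a log2 FC of 0.35 (SE 0.09, adjusted p 0.0215). The TYW1B call ended without DMSO replicate 1, 2 or 3 or 0.1 μM THZ531 replicate 1, 2 or 3 (0.34 to 0.36). DUS3L rose at a log2 FC of 0.29 (SE 0.08, adjusted p 0.0402). The DUS3L call ended under library size alone (0.26), with no filter on low counts (0.30) and without DMSO replicate 1 or 2, 0.1 μM THZ531 replicate 1, 2 or 3, lapatinib replicate 2, nilotinib replicate 1 or 2 or nilotinib combination replicate 2 (0.25 to 0.31). Under mitochondrial scaling DUS2, METTL23, METTL15, TRMT1L, CTU2, TYW1B and DUS3L no longer passed. The low-dose counts moved with single libraries. The count lower was 4 without DMSO replicate 3 or 0.1 μM THZ531 replicate 2, and the count higher was 1 without DMSO replicate 1 or 2 or 0.1 μM THZ531 replicate 1, 2 or 3. With mitochondrial scaling 1 was lower and 0 higher (all genes 1.5% and 0.256%), and with the compared groups alone 13 and 6 (all genes 6.97% and 3.41%). Lapatinib alone gave 0 members lower and 0 higher in edgeR, against 0.0561% and 0.256% of all genes, with 0 and 0 at an unadjusted p under 0.05 (all genes 3.32% and 3.84%) and 0 and 0 by DESeq2 (all genes 0.233% and 0.679%). Nilotinib alone gave 0 and 0 in edgeR, against 0.0998% and 0.243%, with 1 lower and 3 higher at an unadjusted p under 0.05 (all genes 4.51% and 5.15%) and 0 and 1 by DESeq2 (all genes 0.552% and 1.48%). Mitochondrial scaling moved the all-gene medians of lapatinib and nilotinib alone to -0.15 and -0.18.

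Each combination was set against 1 μM THZ531, a comparison without the DMSO libraries. The lapatinib combination was lower for 25 members and higher for 17, against 16.1% and 12.8% of all genes, with a median log2 FC of -0.04 over members and -0.01 over all genes. The nilotinib combination was lower for 21 and higher for 10, against 13% and 11.2%, with medians of 0.01 and -0.03. METTL18, at a log2 FC of 0.65 (SE 0.17, adjusted p 0.00768), was higher in the lapatinib combination, and RPUSD4, at 0.52 (SE 0.11, adjusted p 0.00113), in the nilotinib combination. RPUSD4 was also higher in the lapatinib combination, at 0.32 (SE 0.11, adjusted p 0.0277). The METTL18 call ended under mitochondrial scaling (0.50) and in a fit of the compared groups alone (0.67). The RPUSD4 call in the nilotinib combination ended in a fit of the compared groups alone (0.55). Both comparisons share the 1 μM THZ531 libraries. The count higher in the lapatinib combination was 9 without lapatinib combination replicate 2 or 1 μM THZ531 replicate 2 and 11 without lapatinib combination replicate 3 or 1 μM THZ531 replicate 1. The count higher in the nilotinib combination was 6 without 1 μM THZ531 replicate 2. With the compared groups alone, 13 were lower and 3 higher for lapatinib (all genes 8.26% and 7.64%), and 8 and 3 for nilotinib (all genes 6.29% and 6.28%). Mitochondrial scaling moved the all-gene medians to -0.15 and -0.11 and left 2 and 3 members higher, against 5.96% and 5.36% of all genes. Between the combinations edgeR called 0 members lower and 0 higher, against 0.736% and 0.73% of all genes, with 10 lower and 3 higher at an unadjusted p under 0.05 (all genes 6.3% and 6.21%) and 2 (PUS7 and PUS7L) and 0 by DESeq2 (all genes 1.93% and 1.95%). Deviations from group means correlated at 0.89, 0.57 and 0.42 between same-numbered libraries of the combinations. Only 3 of 6 libraries correlated best with their own number. Lapatinib combination replicate 2 and nilotinib combination replicate 3 reached 0.76, so whether the numbers mark pairs is uncertain. With the replicate number as a block edgeR called 1 lower, PUS7L, and 0 higher (all genes 0.998% and 0.91%). In a fit of the combinations alone with this block, chosen after seeing the data, 4 were lower in the lapatinib combination (ALKBH8, DUS4L, FTSJ3 and PUS7L) and 3 higher (ADAT3, METTL18 and TRMT112), against 2.71% and 3.2% of 14894 genes. Their log2 FC ran from -0.48 to 0.55, and the members called here were named after their values were seen. With a library left out edgeR gave lower counts of 1 without 1 μM THZ531 replicate 2 and 3 without lapatinib combination replicate 1, and a higher count of 1 without 1 μM THZ531 replicate 2.

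The interaction term asks whether a combination differs from the sum of 0.1 μM THZ531 and the inhibitor alone on the log2 scale. With lapatinib it was negative for 70 members and positive for 9, against 32% and 28.2% of all genes. With nilotinib it was negative for 68 and positive for 8, against 31.2% and 25.6%. Its median over members was -0.86 with lapatinib and -0.82 with nilotinib, beside 0.03 and 0.03 over all genes. Mitochondrial scaling moved the all-gene median of the term to -0.52 and -0.41. For METTL1, the term was -2.14 (SE 0.10, adjusted p 1.76e-12) with lapatinib and -2.30 (SE 0.10, adjusted p 9.39e-13) with nilotinib. PUS1 had -1.44 (SE 0.15, adjusted p 1.34e-07) and -1.79 (SE 0.16, adjusted p 7.95e-09) in the same order. The term of TRMT112 was positive, at 0.70 (SE 0.13, adjusted p 0.000137) and 0.36 (SE 0.13, adjusted p 0.0249), and under mitochondrial scaling the sign turned with nilotinib, to -0.07, and neither term passed the test. Under library size alone the nilotinib term, at 0.12, did not pass.

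**Figure D4:**
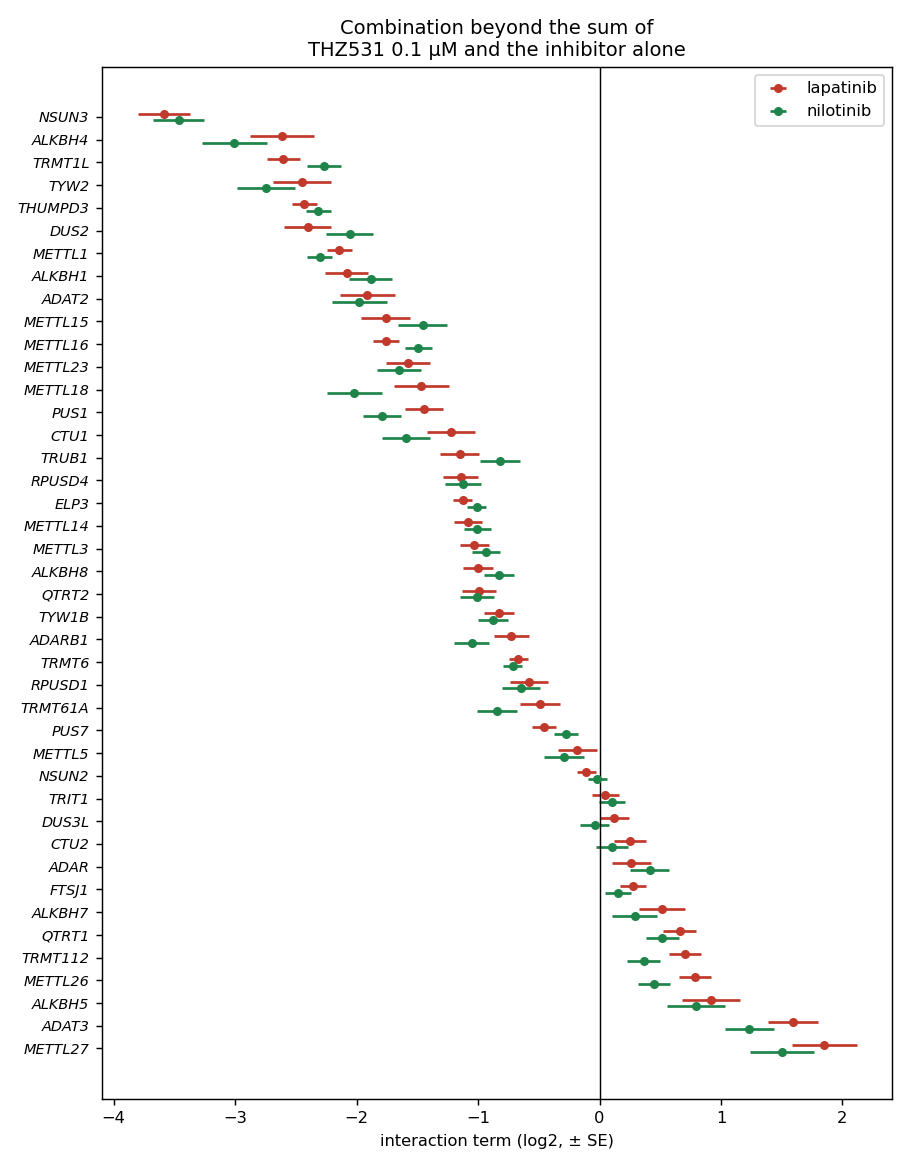
Interaction term on the log2 scale (points, with SE as bars, TMM scaling) of 42 members for lapatinib (red) and nilotinib (green), ordered by the lapatinib term. NSUN3 lies at -3.59 and -3.47, and METTL27 at 1.85 and 1.501; with mitochondrial scaling 2 members have a positive term that passes the test.

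Per kilobase of canonical transcript, DMSO levels of the members differed widely (CPM per kb, mean ± SD, n = 3). TRMT112 stood at 153 ± 11.1, NSUN2 at 50.6 ± 1.81 and ALKBH5 at 49.1 ± 2.36. NSUN3 at 1.04 ± 0.111, METTL27 at 0.911 ± 0.0381 and ADAT2 at 0.691 ± 0.0388 were far lower. Across the 96 members, Spearman's rho between gene span and log2 FC was -0.11, -0.07 and -0.01 in the strong treatments, beside -0.15, -0.10 and -0.11 across 13747 protein-coding genes. For transcript length it was -0.28, -0.25 and -0.22 across members. Genes of the same libraries are not independent replicates. Of the 96 members, 22 share over 10% of their exon bases with another gene.

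Genes of the same pathways outside the rule moved in both directions too. Of 17 m6A writer partners, eraser and readers, the lapatinib combination had 11 lower and 4 higher, the nilotinib combination 11 lower and 4 higher and 1 μM THZ531 11 lower and 1 higher, with medians of -0.68, -0.48 and -0.92, beside -0.01, -0.01 and -0.01 over all genes. WTAP, a writer subunit, had a log2 FC of 1.16 (adjusted p 2.99e-10), 1.00 (adjusted p 2.89e-09) and 0.22 (adjusted p 0.0285) in that order, and under library size alone the sign turned, to -0.04 with 1 μM THZ531, and under mitochondrial scaling the sign turned, to -0.33 with 1 μM THZ531. YTHDF2, a reader that promotes decay, had -1.05 (adjusted p 2.26e-07), -1.01 (adjusted p 3.97e-07) and -1.06 (adjusted p 2.61e-07). FTO, a demethylase, had -0.09 (adjusted p 0.209), 0.03 (adjusted p 0.678) and -0.15 (adjusted p 0.0455), and under library size alone the sign turned, to -0.27 with the nilotinib combination and a call began with the lapatinib combination (-0.42), and under mitochondrial scaling the sign turned, to -0.59 with the nilotinib combination and a call began with the lapatinib combination (-0.77). These 3 were chosen after their values were seen. Of 42 other genes of tRNA and rRNA modification tested out of 43, the counts were 26 lower and 10 higher, 26 lower and 10 higher and 27 lower and 10 higher, with medians of -0.51, -0.59 and -0.77. Over all genes tested the shares called, for either list, were 37.8% lower and 34.3% higher, 37.3% and 33.7%, and 36.8% and 33.1% in that order. FBL, the methyltransferase of box C/D particles, also chosen after its values were seen, had 0.89 (adjusted p 2.98e-10), 0.81 (adjusted p 1.2e-09) and 0.49 (adjusted p 1.9e-06), and under mitochondrial scaling the sign turned, to -0.05 with 1 μM THZ531 and the call ended with the lapatinib combination (0.21) and the nilotinib combination (0.20).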

How the data were processed

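The authors deposited raw counts per gene (Entrez ID) for 21 unstranded polyA libraries. Their processing notes name HISAT2 2.1.0 on GRCh38, featureCounts and DESeq2. From these counts, edgeR 4.0.16 (R 4.3.3) was run with filterByExpr, TMM scaling and the quasi-likelihood test, with 7 group means and Benjamini-Hochberg adjustment over 16036 genes. Alternatives were DESeq2 1.42.0 with its Wald test, its size factors, library size alone, mitochondrial scaling, 2 filters on low counts, the compared groups alone, a replicate block and each library left out. Transcript lengths and overlaps came from GENCODE 44. Named genes were 27 enzymes picked by role (1 more was planned and is not reported here), the 5 largest falls and rises per strong treatment whose libraries lay beyond all DMSO libraries, up to 5 members per direction in each single treatment, up to 3 in comparisons of strong treatments and up to 2 per interaction. The central ones are given in every library and the others with single-agent values as a range. The members and lists were chosen with earlier results of these data known. Whether replicate numbers pair libraries was read from correlations of deviations from group means. Among groups compared directly, every same-numbered pair was over 0.1 only between the combinations (0.892, 0.571 and 0.416), so the blocked counts stand beside that result. A promoter motif search was added after the data were seen.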

Additional observations from a re-analysis of the deposited data

Results flagged for a closer look

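A test of the difference itself, the interaction term in edgeR, found that the effect of lapatinib or nilotinib with 0.1 μM THZ531 present differed from its effect without THZ531. The term was negative for 70 of 96 members and positive for 9 with lapatinib, against 32% and 28.2% of all genes. It was negative for 68 and positive for 8 with nilotinib, against 31.2% and 25.6%. With mitochondrial scaling the positive counts were 2 and 2, against 3.7% and 3.7% of all genes. On the log2 scale NSUN3 had -3.59 with lapatinib and -3.47 with nilotinib. ALKBH4 had -2.62 with lapatinib and -3.01 with nilotinib. METTL27 had 1.85 with lapatinib and 1.501 with nilotinib, from 0.84 ± 0.0351 CPM with DMSO (SD, n = 3). ADAT3 had 1.59 with lapatinib and 1.23 with nilotinib. The 2 terms share the DMSO and 0.1 μM THZ531 libraries.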

How the results depend on the processing

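DESeq2 gave 6 higher for 0.1 μM THZ531 (from 3), 1 higher for nilotinib (from 0) and 2 lower for the combinations against each other (from 0), and the cause was not tested. Library size alone gave 11 lower for 0.1 μM THZ531 (from 7), 8 higher for the lapatinib combination (from 13), 8 higher for the nilotinib combination (from 14), 0 higher beyond 1 for the nilotinib combination (from 2), 5 higher for 1 μM THZ531 (from 11), 9 higher for the lapatinib combination against 1 μM THZ531 (from 17) and 2 higher for the nilotinib interaction (from 8), and the cause was not tested. Mitochondrial scaling gave 1 lower for 0.1 μM THZ531 (from 7), 0 higher for 0.1 μM THZ531 (from 3), 2 higher for the lapatinib combination (from 13), 71 lower beyond -1 for the lapatinib combination (from 43), 0 higher beyond 1 for the lapatinib combination (from 2), 2 higher for the nilotinib combination (from 14), 66 lower beyond -1 for the nilotinib combination (from 38), 0 higher beyond 1 for the nilotinib combination (from 2), 0 higher for 1 μM THZ531 (from 11), 61 lower beyond -1 for 1 μM THZ531 (from 36), 2 higher for the lapatinib combination against 1 μM THZ531 (from 17), 3 higher for the nilotinib combination against 1 μM THZ531 (from 10), 2 higher for the lapatinib interaction (from 9) and 2 higher for the nilotinib interaction (from 8), and the cause was not tested. A fit of the compared groups alone gave 13 lower for 0.1 μM THZ531 (from 7), 6 higher for 0.1 μM THZ531 (from 3), 13 lower for the lapatinib combination against 1 μM THZ531 (from 25), 3 higher for the lapatinib combination against 1 μM THZ531 (from 17), 8 lower for the nilotinib combination against 1 μM THZ531 (from 21) and 3 higher for the nilotinib combination against 1 μM THZ531 (from 10), and the cause was not tested. A replicate block gave 1 lower for the combinations against each other (from 0), and the cause was not tested. A replicate block in a fit of the combinations alone, chosen after seeing the data, gave 4 lower for the combinations against each other (from 0) and 3 higher for the combinations against each other (from 0), and the cause was not tested. For the replicate block, same-numbered libraries of different groups correlated over 8794 genes at 0.152 on average, from -0.83 to 0.892, and other pairs at -0.0694. Between the combinations every same-numbered pair was over 0.1, and 3 of 6 libraries correlated best with their own number. Each inhibitor and its combination also had every same-numbered pair over 0.1, but DMSO and 0.1 μM THZ531, the other groups of the interaction terms, did not. In the other direct comparisons at least 1 same-numbered pair was under 0.1. Apart from the combinations against each other, the block over all groups moved no count of members by over 1.5 times. Leaving out 1 library gave 4 to 9 lower for 0.1 μM THZ531 (from 7), moved by DMSO replicate 3 (4) and 0.1 μM THZ531 replicate 2 (4). The count higher for 0.1 μM THZ531 ranged from 1 to 4 (from 3), moved by DMSO replicate 1 (1), DMSO replicate 2 (1), 0.1 μM THZ531 replicate 1 (1), 0.1 μM THZ531 replicate 2 (1) and 0.1 μM THZ531 replicate 3 (1). The count higher for the lapatinib combination against 1 μM THZ531 ranged from 9 to 20 (from 17), moved by lapatinib combination replicate 2 (9), lapatinib combination replicate 3 (11), 1 μM THZ531 replicate 1 (11) and 1 μM THZ531 replicate 2 (9). The count higher for the nilotinib combination against 1 μM THZ531 ranged from 6 to 12 (from 10), moved by 1 μM THZ531 replicate 2 (6). The count lower for the combinations against each other ranged from 0 to 3 (from 0), moved by lapatinib combination replicate 1 (3) and 1 μM THZ531 replicate 2 (1). The count higher for the combinations against each other ranged from 0 to 1 (from 0), moved by 1 μM THZ531 replicate 2 (1). Under library size alone the log2 FC in the lapatinib combination turned to -0.23 for TRIT1 and -0.28 for ADAR. Under library size alone the log2 FC in the nilotinib combination turned to -0.049 for TRIT1, -0.12 for ADAR and -0.021 for DUS3L. Under library size alone the log2 FC in 1 μM THZ531 turned to -0.078 for ALKBH5, -0.23 for NSUN2, -0.006 for FTSJ1, -0.088 for ADAR and -0.16 for DUS3L. With mitochondrial scaling the log2 FC in the lapatinib combination turned to -0.26 for FTSJ1, -0.02 for CTU2, -0.58 for TRIT1, -0.015 for QTRT1, -0.63 for ADAR, -0.017 for ALKBH7 and -0.33 for DUS3L. With mitochondrial scaling the log2 FC in the nilotinib combination turned to -0.25 for FTSJ1, -0.36 for TRIT1, -0.44 for ADAR and -0.33 for DUS3L. With mitochondrial scaling the log2 FC in 1 μM THZ531 turned to -0.38 for ALKBH5, -0.52 for NSUN2, -0.28 for FTSJ1, -0.16 for CTU2, -0.38 for ADAR, -0.13 for ADAT3 and -0.44 for DUS3L. ADAR in the lapatinib combination ranged from -0.006, without lapatinib combination replicate 3, to 0.143 over the libraries left out. By construction a scaling shifts all genes alike, so a rise smaller than that shift turns with it. The all-gene medians of the strong treatments moved to -0.34, -0.32 and -0.27 with library size alone. With mitochondrial scaling they moved to -0.69, -0.63 and -0.55. Why ADAR turned without lapatinib combination replicate 3 was not tested. With DESeq2's size factors and with either filter on low counts, all 28 counts of members stayed within 1.5 times.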
